A study of Mus musculus with 44 samples.

Results

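The genes described here build, organise and degrade the extracellular matrix of the mouse dorsal root ganglion (DRG): the collagen chains, the laminin chains, the nidogens, the proteoglycans perlecan (Hspg2) and agrin (Agrn), fibronectin (Fn1), Sparc, the matrix metalloproteinases (Mmp genes) and their tissue inhibitors (Timp genes). They were chosen by gene symbol, as every symbol of the form Col, Lam, Mmp or Timp followed by its chain or family number, plus Nid1, Nid2, Hspg2, Agrn, Fn1 and Sparc. The rule found 89 gene identifiers, carrying 88 symbols, among 45882 genes. Of these, 59 had at least 1 FPKM (mapped fragments scaled for transcript length and for the size of the library) in at least 3 libraries of a table, which was 50 in the table of naive mice, 54 in the table of satellite glia after surgery and 23 in the table of neurons. The remaining 30 stayed under that level in every table, among them Mmp9, Timp4, Lama1, Col5a1 and Col4a6.

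All mice were C57BL/6. Satellite glial cells (SGCs), which wrap the neuronal cell bodies of the ganglion, were stained with antibody and Hoechst after fixation in 4% paraformaldehyde and sorted by flow cytometry from L3 and L4 ganglia. Naive sorted SGCs and naive dissociated whole DRGs, both from mice of 9 weeks, had 4 libraries each. SGCs taken 3 days and 14 days after full ligation of the sciatic nerve, or after sham surgery, had 4 libraries in each of the 4 groups, and these mice were 9 to 11 weeks old. Neurons were enriched with magnetic beads, by removal of other cells, from L3 to L5 ganglia 8 days after partial ligation of the sciatic nerve. They comprised 4 libraries of the ligated side and 4 of the opposite side of ligated mice, whose sex is not given, and 3 libraries each of ligated males, ligated females, sham males and sham females. These mice were also 9 to 11 weeks old. Sex is not given for any SGC or whole-ganglion library. No label says which libraries share an animal or whether ganglia were pooled, so a p-value below measures the spread between libraries, which may be partly technical.

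A basement membrane is a thin sheet of matrix that lies against the surface of glia, endothelium, muscle and epithelium, and in the ganglion it covers the outer face of the satellite glial sheath. Its frame is a laminin network, each laminin being a trimer of an alpha, a beta and a gamma chain, and a collagen IV network of Col4a1 and Col4a2 chains; nidogens, perlecan and agrin link the networks to each other and to the cell. Fibrillar collagens such as types I, III and V form the fibres of the surrounding connective tissue. Matrix metalloproteinases cut these proteins, Mmp14 to Mmp17, Mmp24 and Mmp25 from the cell surface and Mmp2 after secretion, and TIMPs bind and block them.

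Sequences just upstream of the gene starts are shown for Nid1, which had the largest log2 difference of the basement membrane genes in SGCs, and for Col5a3 and Timp1, which are described below in neurons. The stretch shared by Col4a1 and Col4a2, which lie head to head, is also given because both genes were higher in SGCs. All come from RefSeq for GRCm38.p6, written 5′ to 3′ on the strand of the gene, with capitals for a CCAAT box (CCAAT, or ATTGG on the other strand) and a GC box (GGGCGG, or CCGCCC). The Nid1 sequence is the plus strand of chr13:13437352-13437550, the Col5a3 sequence the minus strand of chr9:20815068-20815317, and the Timp1 sequence the plus strand of chrX:20869916-20870165. In the same build and the GENCODE annotation, Nid1 runs from 13437551 to 13512269 of chromosome 13, Col5a3 from 20770050 to 20815067 of chromosome 9 and Timp1 from 20870166 to 20874735 of chromosome X, so each sequence ends at the base before the gene. The RefSeq start of Col4a1, on the minus strand of chromosome 8, lies at 11312826 and that of Col4a2, on the plus strand, at 11312805, so the first 22 bases of both genes are the same stretch, chr8:11312805-11312826, shown on the plus strand.
Nid1: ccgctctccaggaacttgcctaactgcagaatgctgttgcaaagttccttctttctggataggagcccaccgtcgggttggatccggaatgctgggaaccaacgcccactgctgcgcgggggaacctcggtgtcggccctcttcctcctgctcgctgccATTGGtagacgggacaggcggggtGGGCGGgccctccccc
Col5a3: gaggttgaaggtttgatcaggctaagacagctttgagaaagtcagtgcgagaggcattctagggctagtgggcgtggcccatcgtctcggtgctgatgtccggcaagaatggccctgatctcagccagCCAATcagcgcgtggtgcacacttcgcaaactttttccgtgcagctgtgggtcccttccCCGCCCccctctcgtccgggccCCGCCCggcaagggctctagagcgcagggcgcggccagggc
Timp1: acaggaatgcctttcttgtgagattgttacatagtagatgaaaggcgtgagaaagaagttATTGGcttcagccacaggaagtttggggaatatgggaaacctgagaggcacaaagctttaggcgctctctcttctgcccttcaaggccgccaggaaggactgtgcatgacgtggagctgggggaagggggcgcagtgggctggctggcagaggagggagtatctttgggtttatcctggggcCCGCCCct
Col4a1 and Col4a2: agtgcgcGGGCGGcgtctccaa

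A GC box occurred within the 250 bases before the start in 35 of the 66 member symbols with a promoter in the table, which is 53.0%, against 32.7% of all 32851 promoters. A CCAAT box occurred in 20 of the 66, or 30.3%, against 33.8% of all promoters. The AP-1 motif TGANTCA matched 9 members (13.6%, against 6.75% of all), the Sox motif ACAAAG matched 12 (18.2%, against 16.5%), and the CRE motif TGACGTCA matched 0, against 1.55% of all promoters. The members with AP-1 were Col6a1 and the chromosome 9 proteases Mmp1a, Mmp1b, Mmp3, Mmp7, Mmp10, Mmp12, Mmp13 and Mmp20. Those proteases reached 1 FPKM in no SGC or DRG library and are not listed for neurons, so the AP-1 share says little of the genes reported here. All 5 motifs were searched on both strands, and the letters TGACGTCA hold no TGANTCA within them. A member symbol with several promoters was counted if any of them matched, whereas the share of all promoters counts each promoter singly, so the units differ. These are matches of letters, given as a description with no test.

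The labelled cell types were visible in their markers. Summed over 15 SGC markers, naive SGC libraries had 18779 to 26366 FPKM and naive DRG libraries 7943 to 10996 FPKM. Much of that sum was Fabp7, with a mean of 13717 FPKM in SGCs and 3924 FPKM in DRGs. Of the 15 markers, 12 were called higher in SGCs and 3 lower, among them Fbxo2 (-1.59, limma adjusted p = 0.00154). Neuron markers summed to 112 to 287 FPKM in naive SGCs and 2932 to 5594 FPKM in DRGs, and macrophage markers to 3.65 to 9.25 FPKM in SGCs and 93.1 to 108 FPKM in DRGs. The 12 markers of myelinating Schwann cells, glia that also make a basement membrane, were lower but present in SGCs, at 647 to 749 FPKM against 1331 to 1797 FPKM in DRGs, with Pmp2 at 0 in all 4 SGC libraries. Endothelial markers went the other way, at 107 to 231 FPKM in SGCs against 48.0 to 96.9 FPKM in DRGs, with 5 of 11 called higher and a median log2 difference of 0.68. Endothelium makes basement membrane as well. Mural (vessel wall) cell markers were lower, at 11.9 to 16.5 FPKM in SGCs against 141 to 196 FPKM in DRGs. Of the 7 tested, 4 were called lower and 1 higher. Erythrocyte markers summed to 0.713 to 1.11 FPKM in SGCs and 1352 to 3221 FPKM in DRGs. Neutrophil markers summed to 0 to 0.143 FPKM in SGCs and 459 to 559 FPKM in DRGs. The part of all these other cells in the differences below was not tested. Fibroblast markers, chosen without collagens, overlapped, at 257 to 624 FPKM in SGCs and 264 to 342 FPKM in DRGs. Much of the SGC sum was Ly6c1, with a mean of 200 FPKM in SGCs and 80.1 FPKM in DRGs (1.29, limma adjusted p = 0.00067). It was the 1 fibroblast marker called, of 5 tested among the 11, so the sum does not show how much fibroblast RNA each preparation held. Only FPKM values are given, so the read depth of a library is unknown. Each library had between 10225 and 13173 genes at 1 FPKM or more, and no pair of libraries held identical values.

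The first comparison asks which matrix genes are concentrated in SGCs relative to the whole ganglion. In naive SGCs, 22 of the 47 members tested were higher than in naive DRGs and 7 were lower. The basement membrane genes had the most even pattern, with all 14 of those tested on the higher side and 8 of them called. Over all genes, 5670 of 12907 were on the higher side. Sparc, Timp3, Nid1, Lamc1 and Mmp14 were each more than 2 times as high in SGCs. The genes called lower were Timp2, Mmp2, Mmp16, Mmp25, Col6a1, Col6a2 and Col24a1. A gene was tested if it reached 1 FPKM in at least 4 libraries, and Mmp2, Mmp16, Mmp25 and Col24a1 reached it in the 4 DRG libraries and in no SGC library. They entered the test only through the group in which they are high, so their lower calls carry no weight and are given as a description. Among the 43 members that reached 1 FPKM in libraries of both groups, 22 were called higher and 3 lower. The share of all genes under that restriction is not given, so these counts are a description. The restriction is also loose. Col6a1 and Col6a2 reached 1 FPKM among SGCs in library 4 alone, and Col4a4, called higher, among DRGs in library 4 alone. Their calls thus come close to the case above. Differences are on the scale log2(FPKM + 1), from limma with Benjamini-Hochberg adjustment over 12907 genes and a call at an adjusted p under 0.05. Over all genes, 16.9% were called higher and 27.9% lower, beside 46.8% and 14.9% of the members. Before adjustment, 35 of the 47 had a p under 0.05, beside 52.2% of all genes. The median log2 difference was 0.69 over the members and -0.12 over all genes. In a bulk library, fewer cells of a type and less RNA per cell cannot be told apart, and neither can the sort and staining of SGCs from the cell type itself.

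**Figure D1:**
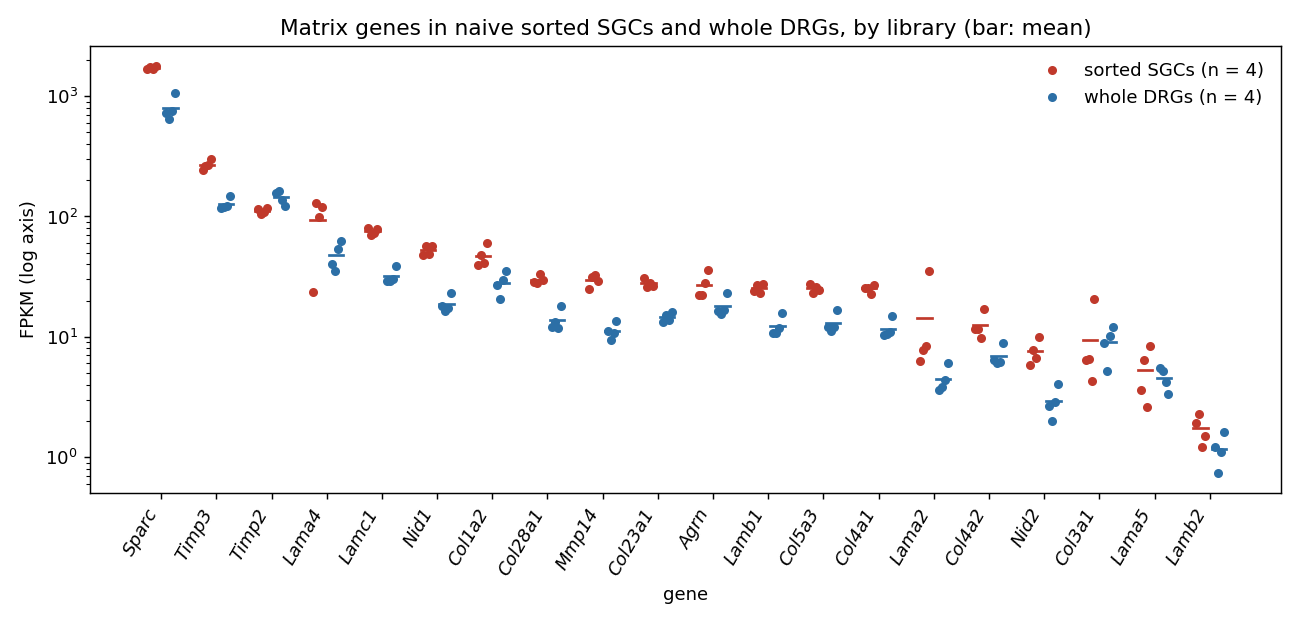
Levels of members in FPKM on a log axis, with 1 point for each of the 4 naive sorted SGC libraries and each of the 4 naive DRG libraries. Sparc lies far above all others in both, and the SGC points of Nid1, Lamc1, Lamb1, Col4a1 and Mmp14 sit clear of the DRG points.

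Sparc, a secreted protein that binds collagen and calcium, was the most abundant member, at 1676, 1758, 1675 and 1774 FPKM in SGCs and 732, 648, 758 and 1059 FPKM in DRGs. All SGC libraries exceeded all DRG libraries. The means were 1721 ± 52.5 and 799 ± 179.6 FPKM (SD, n = 4 each), and they differed by 1.13 ± 0.16 (SE) on the log2 scale (limma adjusted p = 0.000663). After Sparc, the order of mean levels in SGCs was Timp3, Timp2, Lama4, Lamc1, Nid1 and Col1a2. Lama4 could not be placed in that order, because its 4 libraries spread from 23.5 to 131 FPKM. Lower down, Col28a1, Mmp14, Col23a1, Agrn, Lamb1, Col5a3 and Col4a1 had means from 29.8 to 25.2 FPKM, and neighbours among them did not differ beyond their spread. Fibronectin was low in both, at 0.718 to 3.18 FPKM in SGCs and 0.981 to 1.60 FPKM in DRGs, with a difference of 0.23 (limma adjusted p = 0.561).

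The laminin chains differed in how they behaved. Lamc1, the gamma chain shared by most laminins, had 79.5, 69.7, 72.3 and 79.4 FPKM in SGCs and 29.1, 29.0, 30.3 and 38.8 FPKM in DRGs. Its groups did not overlap, and it was higher by 1.23 ± 0.13 (limma adjusted p = 0.000147). The beta chain Lamb1 had 24.0, 26.8, 23.2 and 27.6 FPKM in SGCs and 10.8, 10.8, 11.7 and 15.7 FPKM in DRGs, again without overlap (1.0 ± 0.15, limma adjusted p = 0.000756). The alpha chains were less even. Lama4 had 23.5, 131, 99.2 and 121 FPKM in SGCs and 40.4, 35.1, 54.0 and 62.4 FPKM in DRGs, so that SGC library 1 lay below every DRG library and the other 3 above. The difference of 0.73 ± 0.51 was not called (limma adjusted p = 0.276), and without SGC library 1 it was 1.30 with an adjusted p of 0.00247. Lama2, the alpha chain of laminin 2 in nerve and muscle, had 6.31, 7.77, 8.38 and 35.4 FPKM in SGCs and 3.64, 3.86, 4.40 and 6.04 FPKM in DRGs. Library 4 stood far above the other SGC libraries, although all 4 exceeded the DRG libraries (1.17 ± 0.47, limma adjusted p = 0.074; without SGC library 4, 0.64 and 0.031). Lama5 overlapped, at 2.62 to 8.40 FPKM in SGCs and 3.34 to 5.50 FPKM in DRGs, with a difference of 0.09 (adjusted p = 0.838), and Lamb2 did too, at 1.21 to 2.27 FPKM in SGCs and 0.744 to 1.61 FPKM in DRGs, with a difference of 0.33 (adjusted p = 0.187).

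Nid1, which bridges the laminin and collagen IV networks, had 47.4, 57.3, 48.9 and 56.9 FPKM in SGCs and 17.9, 16.3, 17.4 and 23.3 FPKM in DRGs. The lowest SGC library was above the highest DRG library, with means of 52.6 ± 5.18 and 18.7 ± 3.10 FPKM (SD, n = 4 each), a ratio of 2.81 and 1.45 ± 0.14 on the log2 scale (limma adjusted p = 0.000102). Its relative Nid2 was far less abundant but also higher, at 5.81, 7.84, 6.69 and 9.94 FPKM in SGCs and 2.67, 2.00, 2.87 and 4.08 FPKM in DRGs (1.14 ± 0.21, adjusted p = 0.00267). Agrin had 22.3, 22.4, 28.3 and 35.6 FPKM in SGCs and 16.3, 15.6, 16.6 and 23.2 FPKM in DRGs. Those groups overlapped through DRG library 4, and the call (0.56 ± 0.19, limma adjusted p = 0.0421) held in 3 of the 8 fits that left out 1 library. Perlecan stayed near 1 FPKM, at 0.679 to 1.5 FPKM in SGCs and 0.542 to 1.01 FPKM in DRGs, and was not tested.

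Both major collagen IV chains were higher. Col4a1 had 25.7, 25.5, 22.8 and 27.0 FPKM in SGCs and 10.3, 10.6, 11.1 and 14.8 FPKM in DRGs, and Col4a2 had 11.6, 11.6, 9.75 and 17.1 FPKM in SGCs and 6.40, 6.05, 6.17 and 8.91 FPKM in DRGs. Neither gene's groups overlapped, and the log2 differences were 1.06 ± 0.14 and 0.77 ± 0.20 (limma adjusted p = 0.00047 and 0.0125). These are the genes that share the 22 bases shown above. Col4a4, a minor chain of some specialised basement membranes, was 2.73 to 5.11 FPKM in SGCs and 0.951 to 1.54 FPKM in DRGs (1.12, adjusted p = 0.00189). Col15a1 and Col18a1, the collagens of the basement membrane zone, were on the higher side without being called, with differences of 0.74 (limma adjusted p = 0.0789) and 0.53 (limma adjusted p = 0.0915).

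**Figure D2:**
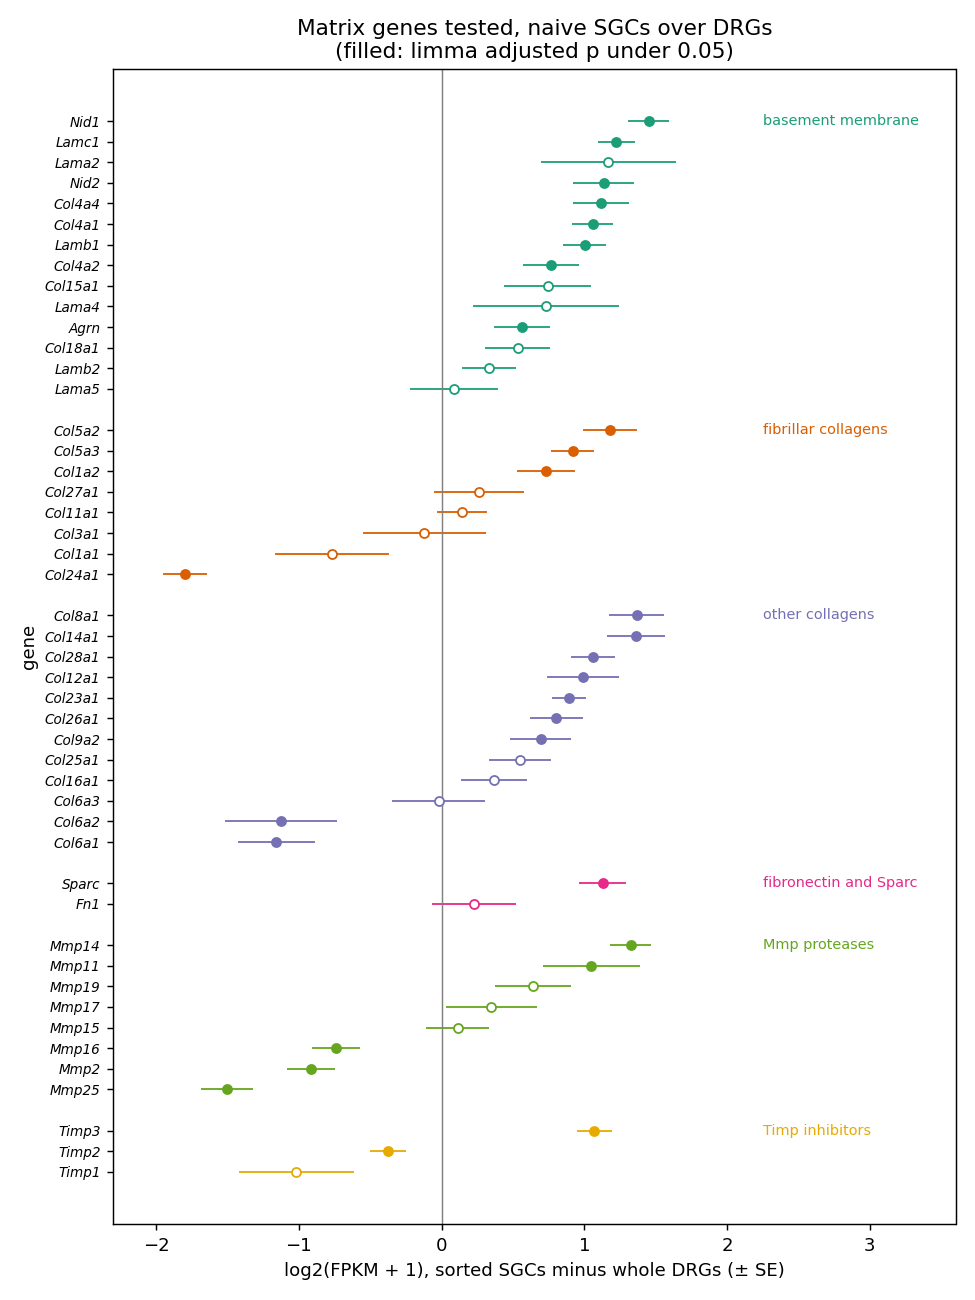
Log2 difference (FPKM + 1), naive sorted SGCs over naive DRGs, for the members tested, grouped by class, with bars of 1 SE and filled points for genes called at an adjusted p under 0.05. All basement membrane genes lie right of 0, from Lama5 at 0.09 to Nid1 at 1.45, while the proteases lie on both sides. Mmp2, Mmp16, Mmp25 and Col24a1 entered the test through the DRG libraries alone.

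Fibrillar collagens were mixed, with 3 of 8 called higher, 1 lower and a median of 0.20. Col1a2 was 39.3, 48.0, 41.0 and 60.8 FPKM in SGCs and 27.1, 20.4, 29.8 and 35.3 FPKM in DRGs (0.73 ± 0.20, limma adjusted p = 0.0168). Its partner in type I collagen, Col1a1, did not follow, at 6.17, 5.44, 3.28 and 16.1 FPKM in SGCs and 13.5, 7.96, 13 and 14.7 FPKM in DRGs (-0.77, limma adjusted p = 0.151; without SGC library 4, -1.16 and 0.00978). Col3a1 overlapped, at 4.25 to 20.7 FPKM in SGCs and 5.23 to 12 FPKM in DRGs (-0.12, adjusted p = 0.841). The type V chains Col5a3 and Col5a2 were higher: Col5a3 had 27.7, 23.3, 25.7 and 24.4 FPKM in SGCs and 12.1, 11.1, 12.2 and 16.7 FPKM in DRGs (0.92 ± 0.15, adjusted p = 0.00118), and Col5a2 had 7.82 to 11.7 FPKM in SGCs and 2.69 to 4.50 FPKM in DRGs (1.18, adjusted p = 0.00112). Col24a1, a fibrillar collagen and 1 of the 4 genes that entered the test through DRGs alone, was at 0, 0.0103, 0.0121 and 0 FPKM in SGCs and 3.21, 2.45, 2.59 and 1.88 FPKM in DRGs (a difference of -1.8). It was close to 0 in every SGC library.

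Among the other collagens, 7 of 12 were called higher and 2 lower. Col28a1, which is known from peripheral nerve, had 28.7, 27.9, 33.1 and 29.4 FPKM in SGCs and 12.1, 13.4, 11.9 and 18.1 FPKM in DRGs (1.06 ± 0.15, limma adjusted p = 0.000684). The transmembrane collagen Col23a1 had 30.6, 26.1, 27.9 and 26.7 FPKM in SGCs and 13.2, 15, 13.9 and 16.1 FPKM in DRGs (0.89 ± 0.12, limma adjusted p = 0.000416). Neither gene's groups overlapped. Col8a1, a short-chain collagen, and Col14a1, which associates with collagen fibrils, were higher by 1.37 and 1.36 (limma adjusted p = 0.000597 and 0.00076), with means of 8.35 and 11.5 FPKM in SGCs, and 2.61 and 3.76 FPKM in DRGs. Col12a1, Col26a1 and Col9a2 were higher by 0.99, 0.80 and 0.69, and the call of Col9a2 held in 5 of 8 such fits. The beaded-filament collagen VI chains Col6a1 and Col6a2 went the other way. Col6a1 had 0.387, 0, 0.446 and 1.41 FPKM in SGCs and 2.64, 1.87, 2.92 and 1.91 FPKM in DRGs (-1.16, limma adjusted p = 0.00769). Col6a2 differed by -1.12 (limma adjusted p = 0.0451, a call that held in 1 of the 8 fits that left out 1 library). A further chain, Col6a3, named here after its values were seen, was not called. It overlapped, at 1.69 to 2.14 FPKM in SGCs and 1.12 to 5.12 FPKM in DRGs, and its SGC libraries exceeded every DRG library but library 1. SGC library 4 held the highest Col6a1, Col6a2, Col1a1 and Col3a1 of its group, as it did for Lama2.

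The metalloproteinases split by member. Mmp14, a membrane-bound protease that activates Mmp2, had 25.2, 31.4, 32.7 and 29.0 FPKM in SGCs and 11.3, 9.47, 10.7 and 13.5 FPKM in DRGs. No SGC library reached down to the DRG range (1.32 ± 0.15, ratio 2.63, limma adjusted p = 0.000169). Mmp11, a secreted protease, was higher on average but overlapped, at 13.1, 26.2, 10 and 15.8 FPKM in SGCs and 5.60, 5.77, 12.8 and 5.26 FPKM in DRGs (1.05 ± 0.34, limma adjusted p = 0.0336), and the call held in 3 of the 8 fits that left out 1 library. Mmp2, the gelatinase that Mmp14 activates, was scarce in both, at 0.174, 0.684, 0.360 and 0.470 FPKM in SGCs, against 1.61, 1.47, 1.5 and 2.09 FPKM in DRGs (a difference of -0.91). Mmp16, a membrane protease related to Mmp14, had 0.912, 0.481, 0.531 and 0.318 FPKM in SGCs and 1.25, 1.97, 1.57 and 1.60 FPKM in DRGs (-0.74 ± 0.17), and Mmp25 was at 0.0108 to 0.430 FPKM in SGCs and 1.60 to 2.90 FPKM in DRGs (-1.5). All 3 entered the test through DRGs alone, as said above. Mmp15 and Mmp17 overlapped between the groups, with differences of 0.11 and 0.35 (limma adjusted p = 0.705 and 0.41).

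Timp3 and Timp2 had higher levels than any protease tested. Timp3, the TIMP that stays bound to the matrix, had 241, 265, 266 and 299 FPKM in SGCs and 118, 120.5, 123 and 148 FPKM in DRGs (1.07 ± 0.12, limma adjusted p = 0.000203). Timp2, a soluble TIMP that also takes part in Mmp2 activation, had 114, 104, 109 and 118 FPKM in SGCs and 158, 164, 137 and 122 FPKM in DRGs (-0.37 ± 0.13, limma adjusted p = 0.0406). Its groups did not overlap but came within a few FPKM, and the call held in 1 of the 8 fits that left out 1 library. Timp1, an inhibitor induced by injury in many tissues, had 1.11, 0.716, 4.11 and 0.228 FPKM in SGCs and 2.74, 2.81, 3.95 and 4.41 FPKM in DRGs. SGC library 3 was the exception to a lower level (-1.02, limma adjusted p = 0.0689; without it, -1.43 and 0.00261).

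Quantile normalization, which gives all libraries the same distribution of values, called 29 members higher and 2 lower in place of 22 and 7. It moved the median difference of all genes to 0.16 and that of the members to 0.93. All 22 genes called higher stayed so, while Col6a1, Col6a2, Mmp2, Mmp16 and Timp2 lost the call, Mmp16 at -0.13 and Timp2 at -0.10. When each of the 8 libraries was left out in turn, the calls of Col6a2 and Timp2 each held in 1 fit, those of Agrn and Mmp11 in 3 and that of Col9a2 in 5.

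Genes that act with these proteins were higher in part. Of 19 tested matrix receptors, 13 were called higher and 2 lower, with a median of 0.79. Itgav, the integrin alpha V chain, which binds fibronectin and vitronectin, averaged 601 ± 99.0 FPKM in SGCs and 172 ± 27.3 FPKM in DRGs (1.8, limma adjusted p = 7.65e-05). The laminin receptors Bcam and Itga3 were lower, by -2.50 and -1.88. Of 21 genes of collagen processing and cross-linking, 9 were higher and 2 lower (median 0.41). Serpinh1, the collagen chaperone, averaged 61.7 ± 16.9 FPKM in SGCs and 23.3 ± 5.57 FPKM in DRGs (1.35), P4ha3, a prolyl hydroxylase chain, was higher by 1.28, and Pcolce2, an enhancer of procollagen cleavage, was lower (-2.07). Of 22 other proteases and inhibitors, 10 were higher and 6 lower (median 0.60), the largest differences being those of Adam23 (-3.51), Ctss (-2.92) and Adam22 (-2.27). Adam22 and Adam23 are neuronal membrane proteins with no protease activity, and Ctss is a cathepsin of macrophages. Ctss reached 1 FPKM in every DRG library and in no SGC library, so it entered the test through DRGs alone. It is counted among the 6 lower, but its call carries no weight and its difference is given as a description. Which other genes of these lists entered the test in that way is not given. Among 30 other matrix proteins, 11 were higher and 4 lower (median 0.28), with Spp1 (-2.18), Aspn (-1.93) and Spock2 (-1.68) the largest.

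The next comparison asks whether nerve ligation changed these genes in SGCs. By limma, no member was called on either day, and most groups overlapped. Of 53 members tested, 0 were called 3 days after ligation against sham and 0 were called 14 days after, and 7 and 4 of them had an unadjusted p under 0.05 at 3 and at 14 days. Few genes were called at all, 0.0431% of 13924 higher and 0.0215% lower at 3 days, and 0.00718% higher and 0.0% lower at 14 days, while 9.11% and 5.16% had an unadjusted p under 0.05. The median log2 difference of the members was -0.02 at 3 days and 0.08 at 14 days, beside -0.01 and -0.02 over all genes. Libraries of these 4 groups were less alike than those of naive DRGs. Their mean correlation with the others of their group ran from 0.782 to 0.860, against 0.929 to 0.939 in naive DRGs. The authors' deposited table, from DESeq2, called 2 members higher and 1 lower of 69 at 3 days, beside 0.498% and 0.515% of all its genes. At 14 days the authors' deposited table called 1 higher and 1 lower of 76, beside 0.641% and 0.412% of all its genes. Its fold changes are turned here to ligated over sham, since they run opposite to the FPKM means in 125 of 126 and 157 of 158 of the genes compared.

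The basement membrane genes were not called on either day. Of 17 tested, 9 were on the higher side at 3 days and 8 at 14 days, with medians of 0.00 and -0.02. Of all 13924 genes, 6762 and 6651 were on the higher side. Nid1 had 31.0, 41.6, 45.3 and 39.2 FPKM in ligated and 40.4, 46.0, 50.3 and 51.6 FPKM in sham libraries at 3 days (-0.26 ± 0.13, limma adjusted p = 0.582). At 14 days it had 49.1, 49.1, 42.9 and 51.2 FPKM in ligated and 50.6, 45.6, 51.6 and 46.4 FPKM in sham libraries (-0.02 ± 0.13). Groups overlapped on both days. Col4a1 differed by 0.01 ± 0.15 at 3 days and -0.10 ± 0.15 at 14 days, and Lamc1 by -0.02 ± 0.18 and -0.18 ± 0.18. Over the 16 libraries Col4a1 ranged from 19.5 to 30.7 FPKM and Lamc1 from 51.4 to 93.1 FPKM. Sparc averaged 1507 ± 83.5 FPKM in ligated and 1503 ± 186 FPKM in sham libraries at 3 days, and it differed by 0.01 ± 0.10 at 3 days and -0.10 ± 0.10 at 14 days. Its 16 values lay between 1299.5 and 1801 FPKM.

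Lama2 and Lama4 again varied between libraries of the same group. Lama2 had 49.4, 31.7, 10.5 and 6.83 FPKM in ligated and 7.17, 40.5, 7.83 and 6.99 FPKM in sham libraries at 3 days, so high values occurred in both groups. At 14 days its libraries were even, at 6.72 to 8.52 FPKM in ligated and 8.13 to 10.7 FPKM in sham. Lama4 was even at 3 days, at 92.3 to 104 FPKM in ligated and 80.9 to 99.4 FPKM in sham libraries. At 14 days it had 111, 28.5, 114 and 67.5 FPKM in ligated and 97.0, 121, 27.1 and 86.8 FPKM in sham libraries, with 1 low library in each group. The standard errors of 0.56 for Lama2 and 0.43 for Lama4 are accordingly wide.

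**Figure D3:**
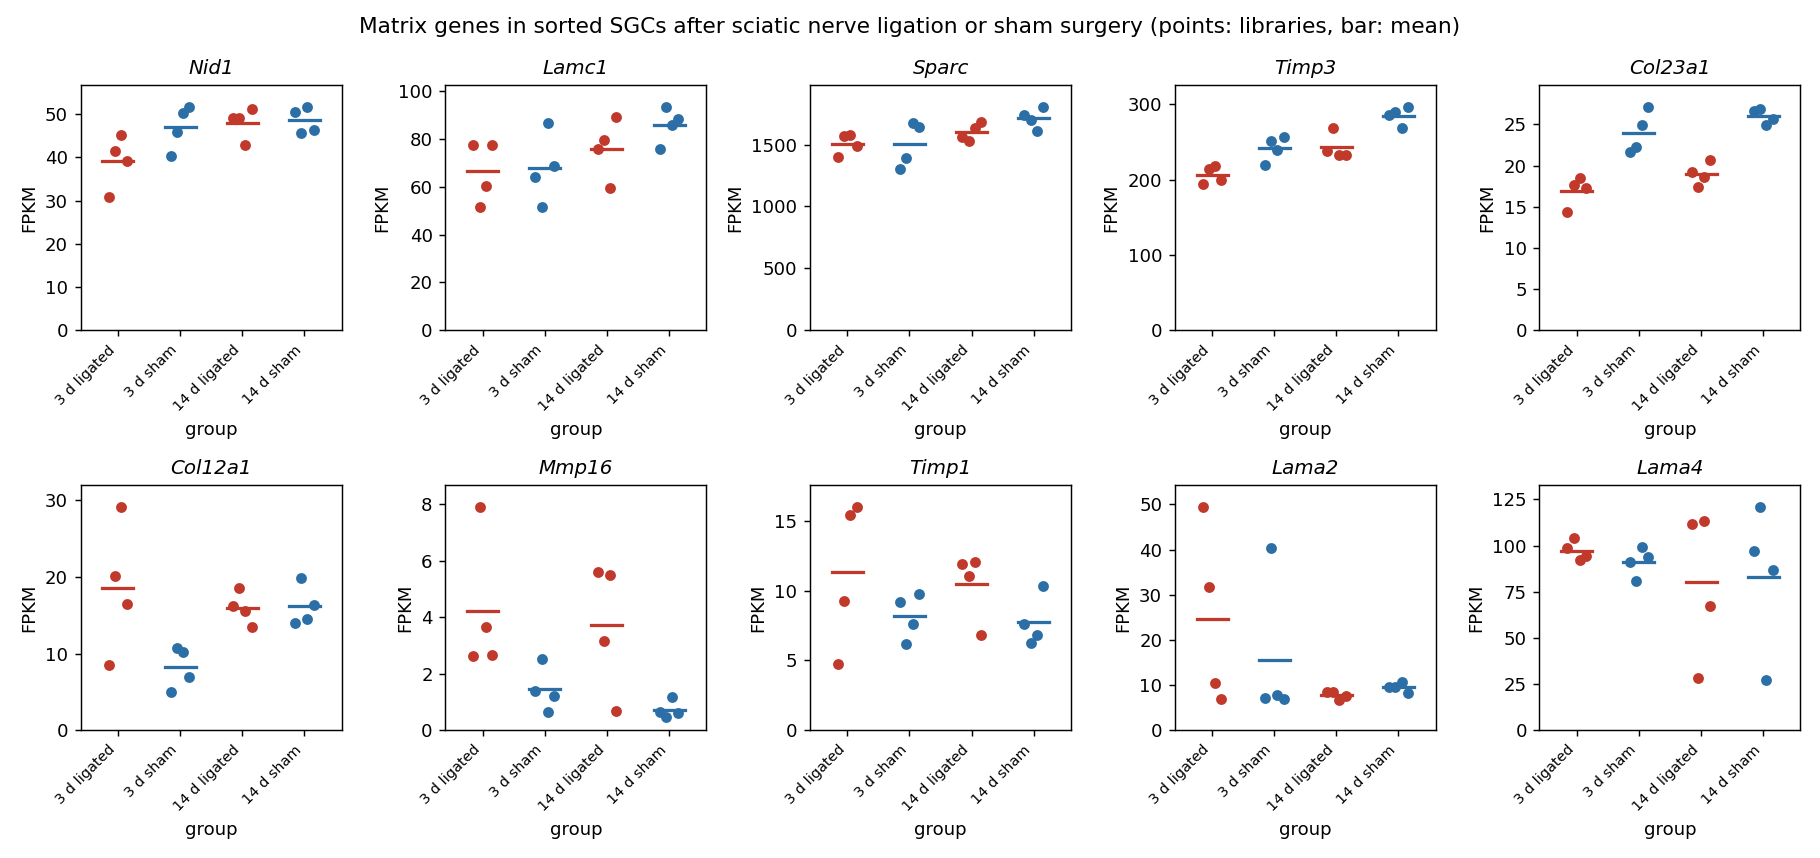
FPKM of selected members in each SGC library, with ligated left of sham at 3 days and at 14 days after surgery, 4 libraries per group, with bars for group means. Col23a1 points of ligated libraries lie below those of sham libraries on both days, while Nid1 and Sparc points overlap.

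Some members had groups that did not overlap, or were called in the authors' deposited table, without passing the limma test. How often groups fail to overlap over all genes is not given, so such separation is a description only. Col23a1, chosen for description after its values were seen, had 14.4, 17.6, 18.4 and 17.3 FPKM in ligated and 21.6, 22.3, 24.9 and 27.1 FPKM in sham libraries at 3 days (-0.48 ± 0.12, unadjusted p = 0.00156, limma adjusted p = 0.246). At 14 days it had 19.2, 17.4, 18.6 and 20.6 FPKM in ligated and 26.6, 26.9, 25 and 25.7 FPKM in sham libraries (-0.44 ± 0.12, limma adjusted p = 0.561). Every ligated library lay below every sham library on both days. The authors' deposited table gives -0.50 (adjusted p = 0.00413) and -0.43 (adjusted p = 0.0117) for these differences, both called.

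Mmp16 had 2.61, 7.90, 3.65 and 2.66 FPKM in ligated and 1.39, 2.53, 0.643 and 1.21 FPKM in sham libraries at 3 days, without overlap (1.04 ± 0.42, limma adjusted p = 0.475). At 14 days it had 5.61, 3.17, 5.50 and 0.663 FPKM in ligated and 0.654, 0.477, 1.16 and 0.622 FPKM in sham libraries (1.28 ± 0.42, limma adjusted p = 0.816). Ligated library 4 fell within the sham range, and without it the difference was 1.72 (limma adjusted p = 0.183). The authors' deposited table gives 1.37 (adjusted p = 0.0186) at 3 days and 2.67 (adjusted p = 0.000214) at 14 days. Neuron markers were present in these sorted libraries, at a sum of 423 to 687 FPKM in ligated and 190.2 to 889 FPKM in sham libraries at 3 days and 266 to 751 FPKM in ligated and 245 to 526 FPKM in sham libraries at 14 days. At 14 days the medians were 707 FPKM in ligated and 399 FPKM in sham libraries, with 8 of 12 markers on the higher side and 0 called, and the part of neurons in Mmp16 was not tested.

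Col12a1, a collagen associated with fibrils and likewise described after its values were seen, had 8.53, 20.1, 29.1 and 16.4 FPKM in ligated and 4.98, 10.7, 10.2 and 6.94 FPKM in sham libraries at 3 days (1.02 ± 0.30, limma adjusted p = 0.314). The groups overlapped at 3 days, because ligated library 1 lay below sham libraries 2 and 3. At 14 days they also overlapped, at 13.5 to 18.6 FPKM in ligated and 14.0 to 19.8 FPKM in sham libraries (-0.01 ± 0.30). The effect at 14 days minus the effect at 3 days was -1.04 ± 0.42, with an unadjusted p of 0.027 and a limma adjusted p near 1. Sham libraries themselves differed by 0.94 ± 0.30 between 14 and 3 days (limma adjusted p = 0.967). The authors' deposited table gives 1.33 (adjusted p = 0.0218) at 3 days and 0.13 (adjusted p = 0.938) at 14 days. Fibroblast markers summed to 632 to 984 FPKM in ligated and 369.5 to 604 FPKM in sham libraries at 3 days, and to 402 to 867 FPKM in ligated and 370.1 to 722 FPKM in sham libraries at 14 days. Of the 11 markers, 5 were tested, with 5 on the higher side at 3 days, 3 at 14 days and 0 called. These sums include Ly6c1, which made up much of the naive SGC sum, and its share here is not given. They therefore do not show how much fibroblast RNA each library held. The part of fibroblasts in Col12a1 was not tested.

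Timp3 was slightly lower after ligation, at 194, 215, 219 and 199 FPKM against 219.6, 251, 239 and 257 FPKM in sham libraries at 3 days (-0.22 ± 0.09, limma adjusted p = 0.493). At 14 days it had 238, 269, 234 and 233 FPKM in ligated and 285, 291, 269 and 296 FPKM in sham libraries (-0.23 ± 0.09, limma adjusted p = 0.884). The authors' deposited table gives -0.18 (adjusted p = 0.819) and -0.08 (adjusted p = 0.962). Timp1 had 4.75, 9.25, 15.4 and 16 FPKM in ligated and 9.20, 6.19, 7.61 and 9.75 FPKM in sham libraries at 3 days, with the lowest and the highest values both among ligated libraries (0.32 ± 0.31, limma adjusted p = 0.812). Mmp14 differed by -0.11 ± 0.18 and 0.02 ± 0.18. Col18a1, an endothelial and epithelial basement membrane collagen, had 6.12, 9.90, 11.1 and 11.2 FPKM in ligated and 5.21, 6.10, 4.25 and 7.13 FPKM in sham libraries at 3 days (0.65 ± 0.24, limma adjusted p = 0.428). Endothelial markers summed to 278 to 511 FPKM in ligated and 189 to 369.8 FPKM in sham libraries at that time, with all 11 on the higher side and 0 called, and their part in Col18a1 was not tested.

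For the ligation effect at 14 days minus that at 3 days, limma called 0 of 53 members, beside 0.00718% of all genes called higher and 0.0% lower, and 4 members had an unadjusted p under 0.05, beside 4.19% of all genes. Sham libraries of 14 days against those of 3 days gave 0 of 53 members and 0.0% of all genes, with 3 members at an unadjusted p under 0.05, beside 4.99% of all genes. Both day comparisons use the same sham libraries as the ligation comparisons. Matrix receptors, collagen processing genes, other proteases and other matrix proteins likewise had 0 called by limma on either day, of 23, 23, 23 and 35 tested.

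In the enriched neurons the question is which of these genes differ 8 days after partial ligation. Mmp16 was higher in both comparisons available, ligated over sham and ligated side over opposite side, which use different libraries. Col5a3 was also called between the sides, where Timp1, Lamb3 and Col7a1 had groups that did not overlap and were not called. The share of all genes whose sides do not overlap is not given, so that separation is a description only. By limma, 1 of 23 members was higher in ligated than in sham neurons, or 4.35%, beside 0.28% of 12145 genes, and 0 were lower, beside 0.0%. Between the sides, 2 of 23 were higher, or 8.70%, beside 0.659% of all genes, and 0 were lower, beside 0.00823%. Before adjustment, 5 of 23 against sham and 7 of 23 between the sides had a p under 0.05, beside 3.58% and 9.85% of all genes. The median differences of the members were -0.08 and 0.04. The table lists no more than 23 of the 89 members, and no Nid1, Nid2, Col4a1, Col4a2 or Mmp14.

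Mmp16, on chromosome 4 from 17852893 to 18119145 of GRCm38, had 12.5, 7.99, 17.8 and 11.2 FPKM on the ligated side and 1.66, 2.37, 1.12 and 3.73 FPKM on the opposite side. The sides did not overlap, with means of 12.4 ± 4.07 and 2.22 ± 1.13 FPKM (SD, n = 4 each), a ratio of 5.58 and 2.07 ± 0.36 on the log2 scale (limma adjusted p = 0.0045). In males it had 6.71, 5.70 and 9.11 FPKM in ligated and 1.5, 3.27 and 3.14 FPKM in sham libraries, and in females 5.46, 6.20 and 13.6 FPKM in ligated and 2.74, 0.898 and 0.799 FPKM in sham libraries. All 6 ligated libraries exceeded all 6 sham libraries, with means of 7.79 ± 3.13 and 2.06 ± 1.13 FPKM (SD, n = 6 each), a ratio of 3.79 and a difference of 1.55 ± 0.29 (limma adjusted p = 0.0178). The effect in males minus that in females was -0.72 ± 0.59 with an unadjusted p of 0.235 and a limma adjusted p near 1. The authors' deposited table, turned likewise to ligated over sham because 228 of 228 genes compared ran opposite, gives 1.48 and calls it. In the 12 fits that left out 1 library, the call against sham held in 7 and was lost without ligated male library 3, ligated female library 3, sham male library 1, or sham female library 2 or 3, with adjusted p-values of 0.0671 to 0.0827. The call between the sides held in all 8 such fits. Both calls were lost in fits of only the groups compared, with adjusted p-values of 0.0522 against sham and 0.0727 between the sides.

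**Figure D4:**
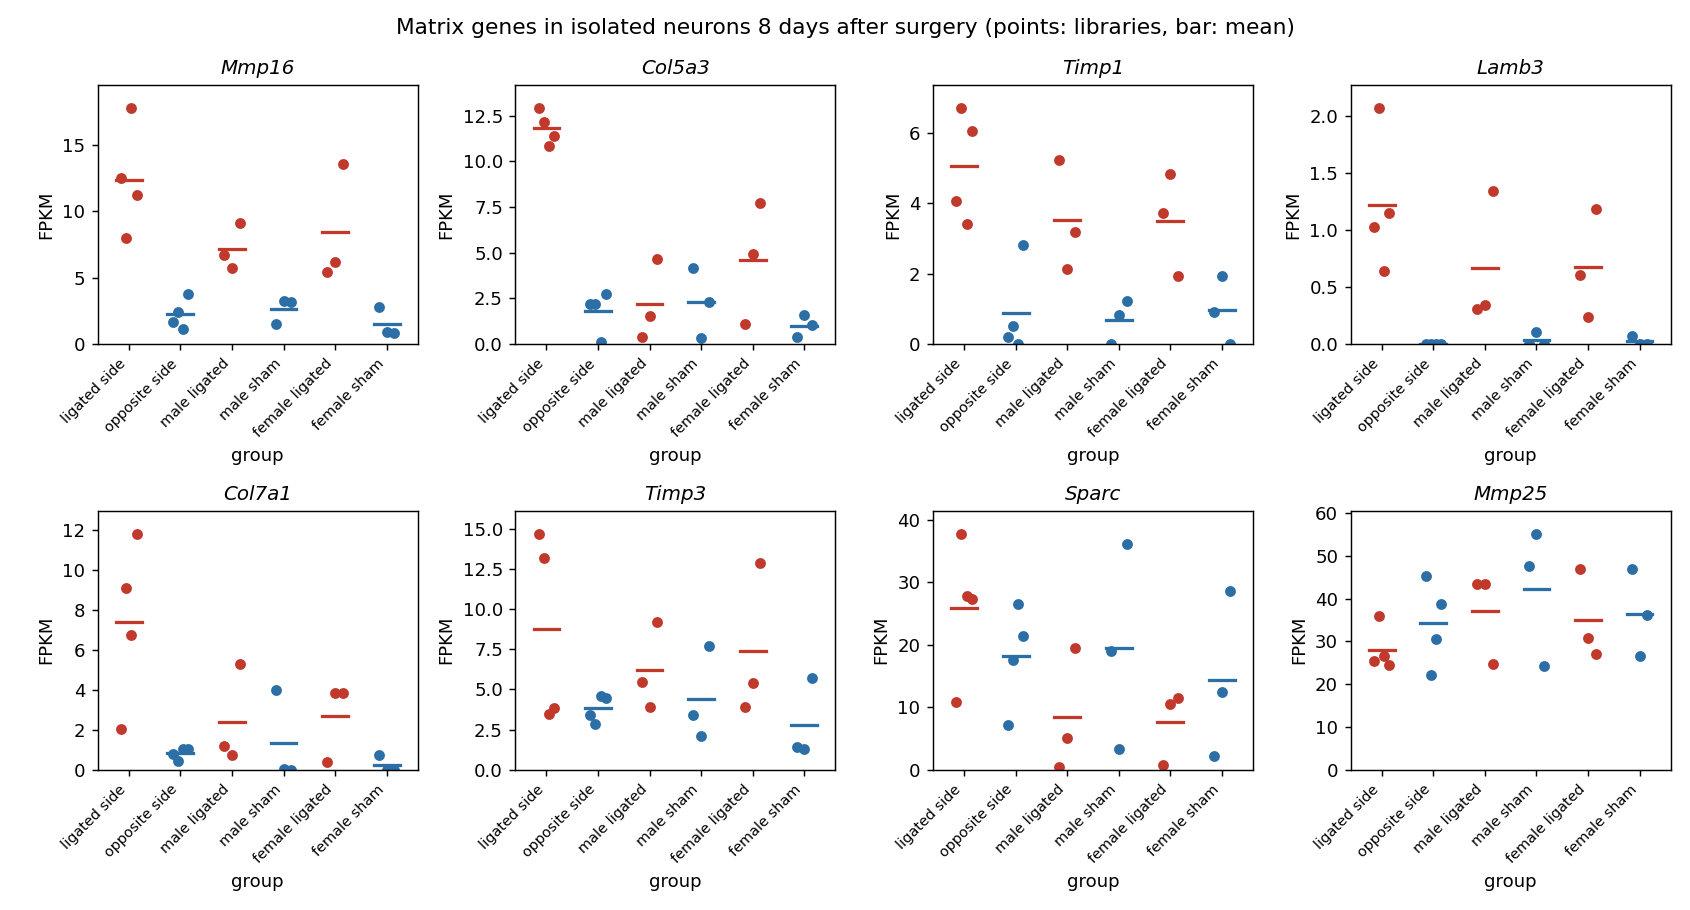
FPKM of selected members in each enriched-neuron library: ligated side left of opposite side (4 libraries each), then ligated left of sham in males and in females (3 libraries each), with bars for group means. The Mmp16 points of all ligated groups lie above those of their opposite-side and sham groups, whereas Col5a3 points separate the sides and overlap between ligated and sham.

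Col5a3, a type V collagen chain, had 12.9, 12.1, 10.8 and 11.4 FPKM on the ligated side and 2.20, 2.17, 0.0891 and 2.71 FPKM on the opposite side. Every ligated-side library lay above every opposite-side library (11.8 ± 0.893 and 1.79 ± 1.16 FPKM, SD, n = 4 each), with a ratio of 6.59 and a difference of 2.34 ± 0.52 (limma adjusted p = 0.042). That call held in 0 of the 8 fits that left out 1 library, with adjusted p-values of 0.0514 to 0.136. Ligated and sham libraries overlapped, where males had 0.402, 1.51 and 4.65 FPKM in ligated and 4.17, 0.307 and 2.31 FPKM in sham libraries, and females 1.1, 4.91 and 7.71 FPKM in ligated and 0.354, 1.56 and 1.04 FPKM in sham libraries (0.63 ± 0.43, limma adjusted p = 0.999). The authors' deposited table gives 0.98 (adjusted p = 0.0181) for ligated over sham.

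Timp1 had 4.06, 6.71, 3.41 and 6.05 FPKM on the ligated side and 0.201, 0.511, 0 and 2.81 FPKM on the opposite side, without overlap (1.86 ± 0.44, limma adjusted p = 0.0564; without opposite-side library 4, 2.27 and 0.0102). In males it had 5.24, 2.13 and 3.20 FPKM in ligated and 0, 0.812 and 1.22 FPKM in sham libraries, and in females 3.73, 4.85 and 1.92 FPKM in ligated and 0.909, 1.95 and 0 FPKM in sham libraries. The groups met only in females, at 1.92 and 1.95 FPKM, and the difference was 1.37 ± 0.36 (limma adjusted p = 0.215). The authors' deposited table calls it, at 1.07 (adjusted p = 0.00768). Timp3 was mixed on the ligated side, at 14.7, 13.2, 3.45 and 3.82 FPKM, against 3.38, 2.86, 4.60 and 4.48 FPKM on the opposite side (0.80, limma adjusted p = 0.617), and it differed by 0.84 between ligated and sham (limma adjusted p = 0.999). For that contrast the authors' deposited table gives 0.91 (adjusted p = 0.0088).

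Lamb3, a beta chain of epithelial laminin, was low throughout. Its values reached 1 FPKM in 5 libraries, all of them ligated, so it entered the table's test only through those groups and its separation is given as a description. It had 1.03, 2.07, 0.637 and 1.15 FPKM on the ligated side and was listed at 0 in all 4 libraries of the opposite side (a difference of 1.11 ± 0.27, not called). Between ligated and sham its groups did not overlap, at 0.237 to 1.35 FPKM in ligated and 0 to 0.108 FPKM in sham libraries (0.65 ± 0.22, not called), and the authors' deposited table gives 1.16 (adjusted p = 0.000854). Col7a1, the anchoring fibril collagen, had 2.04, 9.10, 6.77 and 11.8 FPKM on the ligated side and 0.787, 0.441, 1.04 and 1.02 FPKM on the opposite side (2.04 ± 0.57, limma adjusted p = 0.142). It overlapped between ligated and sham (1.07, limma adjusted p = 0.999), where the authors' deposited table gives 0.27 (adjusted p = 0.772). Lamb3 and Col7a1 were picked for description after their values were seen. In the authors' deposited table, 5 of 40 members were called higher in ligated neurons, Mmp16, Col5a3, Timp1, Timp3 and Lamb3, beside 1.38% of all its genes, and 0 lower, beside 0.323%.

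The matrix genes with the highest levels in neurons had overlapping groups. Timp2 ranged from 35.2 to 109 FPKM over the 20 libraries with a median of 43.0 FPKM, and Mmp25, named here after its level was seen, from 22.2 to 55.1 FPKM with a median of 33.3 FPKM. Mmp25 differed by -0.11 ± 0.24 between ligated and sham and -0.25 ± 0.29 between the sides. Sparc, the most abundant member in SGCs, spread here from 0.479 to 37.7 FPKM (median 15) with differences of -1.07 ± 0.69 and 0.50 ± 0.84, neither called. Mmp24, a membrane protease of neurons, was on the lower side in both comparisons, with -0.72 ± 0.38 and -0.81 ± 0.47, not called. Lamc1 was at 0 to 1.5 FPKM on the ligated side and 1.28 to 5.43 FPKM on the opposite side (-1.29 ± 0.39, limma adjusted p = 0.174).

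Of the matrix receptors, 2 of 13 tested were higher in ligated than in sham neurons: Itga7, a laminin-binding integrin chain, at 80.4 ± 15.3 FPKM in ligated and 37.1 ± 12.6 FPKM in sham neurons (SD, n = 6 each; 1.15, limma adjusted p = 0.035), and Sdc1, a cell-surface heparan sulfate proteoglycan, at 55.1 ± 14.3 FPKM in ligated and 28.0 ± 6.20 FPKM in sham neurons (0.94, limma adjusted p = 0.031). Both were also higher on the ligated than on the opposite side, by 1.69 and 1.29 (limma adjusted p = 0.0038 and 0.0058). Of 15 other matrix proteins 1 was higher, Tgfbi, a secreted protein that binds collagen and integrins, at 10.6 ± 4.76 FPKM in ligated and 1.48 ± 1.41 FPKM in sham neurons (2.28, limma adjusted p = 0.0078). Tgfbi was listed at 0 in all 4 opposite-side libraries. None of the 16 collagen processing genes or 17 other proteases and inhibitors tested was called by limma in ligated over sham, with 0 and 3 of them at an unadjusted p under 0.05.

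The enriched neurons carried other cells to differing degrees. Neuron markers summed to 6959.9 to 10447 FPKM over the 20 libraries. Endothelial markers summed to 20.4 to 44.5 FPKM on the ligated side and 46.5 to 125 FPKM on the opposite side, and fibroblast markers to 67.9 to 121 FPKM on the ligated side and 41.4 to 73.7 FPKM on the opposite side. Erythrocyte markers were the largest of the other cells, at 10787 to 24168 FPKM on the ligated side and 4089.9 to 18969 FPKM on the opposite side, with all 6 on the higher side and 0 called, and from 355 to 18894 FPKM over the ligated and sham libraries of both sexes. Markers of myelinating Schwann cells summed to 735 to 2855 FPKM and SGC markers to 334.5 to 670 FPKM over the 20 libraries. Several of these sums are partial. Values were listed for 7 of 15 SGC, 8 of 12 Schwann cell, 6 of 11 endothelial and 5 of 11 fibroblast markers. The part of all these cells in Mmp16, Lamc1, Col5a3, Timp1 and Col7a1 was not tested. Library 2 of the opposite side stood apart among the neuron libraries, with a mean correlation of 0.843 with the other libraries of its group. Every library of the other neuron groups had at least 0.904. Library 2 also held the highest Timp2, Agrn and Lamc1 of its group. No member was called by limma for the ligation effect in males minus that in females, and 0 of 23 had an unadjusted p under 0.05, beside 0.0% of all genes called in either direction, and 1.07% of all genes had an unadjusted p under 0.05.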

How the data were processed

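The members and all gene lists were chosen with earlier results of these data known. Levels are FPKM values that the authors deposited in 3 tables, for 44 libraries in 12 groups. Per the submitters' processing notes, STAR, SAMtools, Cufflinks and DESeq2 were used with the mm10 build, with no versions or settings given. The authors' deposited DESeq2 tables hold log2 fold changes and adjusted p-values, and were used beside the fits made here. The naive table writes a decimal comma, and its deposited values were read as FPKM. The 6 columns of group means in the neuron table were not used. No counts were used, so no depth or counting interval is given.

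The test was limma 3.58.1, run in R 4.3.3 with its trend option, two-sided, with 1 fit per table on log2(FPKM + 1), which understates the change of low genes. Genes needed 1 FPKM in at least 4 libraries (3 for neurons). Adjusted p-values are Benjamini-Hochberg over all genes tested, with a call under 0.05. In the neuron table all 20 libraries shared 1 fit. The fit was also run on simulated data, and the results of that run are not given here. Python 3.11.15 with pandas 2.3.3 and Matplotlib 3.10.9 did the rest. Genes were named from a list of members with known roles, plus up to 15 other called members per comparison and up to 3 called genes of each further list; other genes are said to have been chosen after their values were seen. Neuron libraries are numbered in column order, which names them only. Promoter sequences are RefSeq's, GRCm38.p6; gene ends are from the GENCODE annotation of the same build.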

Additional observations from a re-analysis of the deposited data

Results flagged for a closer look

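In groups of 4 libraries with a mean of at least 5 FPKM, a library was picked out when its gap to the nearest other library passed Dixon's critical value. This held in 14 of 169 groups, and chance gives about 1 in 20. Naive DRG library 4 was the high one for 5 genes: Timp3 at 148 FPKM (others 118 to 123), Lamc1 at 38.8 (others 29.0 to 30.3), Col4a1 at 14.8 (others 10.3 to 11.1), Col4a2 at 8.91 (others 6.05 to 6.40) and Agrn at 23.2 (others 15.6 to 16.6). Naive SGC library 4 was high for Lama2, at 35.4 FPKM (others 6.31 to 8.38), and Col3a1, at 20.7 (others 4.25 to 6.51). Naive DRG library 3 was high for Mmp11, at 12.8 FPKM (others 5.26 to 5.77).

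After surgery, sham library 2 at 3 days had 40.5 FPKM of Lama2 (others 6.99 to 7.83), and sham library 4 at 3 days was low for Col3a1, at 5.33 FPKM (others 10 to 10.6). Ligated library 2 at 14 days had 269 FPKM of Timp3 (others 233 to 238), and sham library 2 at 14 days had 7.93 FPKM of Col8a1 (others 6.65 to 6.73). In neurons, library 2 of the opposite side was high for Timp2, at 85.3 FPKM (others 35.6 to 43.5), and for Agrn, at 22.5 FPKM (others 6.57 to 7.31).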

How the results depend on the processing

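In naive SGCs over DRGs, the 29 members called became 24 to 31 when 1 library was left out, with 19 to 26 higher and 5 to 7 lower. The count was 22 higher and 7 lower with a pseudocount of 0.1, 22 and 8 with a filter of 1 FPKM in 3 libraries, and 19 and 11 of 85 tested without a filter. After surgery, no SGC member was called under any alternative run. In neurons, ligated over sham, the 1 member called became 0 in a fit of only the groups compared, and 0 to 1 with 1 library left out. Between the sides, the 2 called became 1 under quantile normalization, 0 in a fit of only the groups compared, and 1 to 3 with 1 library left out. No difference of a named member that was called changed sign in any alternative run. Over the alternatives, the adjusted p of Mmp16 ran from 0.0137 to 0.0827 against sham and from 0.00456 to 0.0727 between the sides, and that of Col5a3 between the sides from 0.0423 to 0.181. Pairing by replicate number was checked: correlations of same-numbered libraries ran from -0.0758 to 0.186, 1 of 16 was over 0.1, and 5 of 16 libraries matched their own number best. Same-numbered libraries thus showed little likeness. With 4 libraries per group, the check cannot tell whether they share an animal or a batch. A fit with the replicate block called 22 higher and 5 lower in naive SGCs, 27 in all, and 0 in each SGC surgery comparison. It gained Col15a1 (adjusted p = 0.039) and Lama2 (0.0332), and lost Mmp11 (0.0745), Col9a2 (0.0502), Col6a2 (0.0712) and Timp2 (0.094). No paired analysis was possible because the neuron columns carry no replicate number, for that table. Depth could not be judged from FPKM.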
